A study of Mus musculus with 15 samples.

Results

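The 6 genes described here are the receptors Erbb4, Erbb3 and Egfr and the ligands Nrg1, Nrg2 and Nrg3, out of 32285 genes counted by single-nucleus RNA sequencing of the mouse dorsal hippocampal formation (dHF). They were chosen by a measured value already known in these data, around which the ErbB receptors and neuregulins were gathered, a lower level of Erbb4 in hilar mossy cells of control RE than of NP mice. That difference is therefore given as a description with no test, and so is every other difference between control RE and NP in mossy cells. The study compared 6 NP mice (age-matched virgin females), 4 control RE mice (reproductive experience: females that were bred, gave birth and nursed) and 5 stress RE mice (the same experience with limited nesting and daily separation from the pups in the late postpartum period). All 15 were female wild-type C57BL6/J mice, each library held the nuclei of 1 mouse, and the mice were processed in batches 1, 2 and 3, with 1 stress RE mouse, 2 NP mice but none of control RE in batch 1.

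ErbB receptors are receptor tyrosine kinases that pair on binding a ligand with an EGF-like domain. ErbB4 binds neuregulins and signals through its own kinase, ErbB3 binds neuregulins but depends on a partner for kinase activity, and Egfr binds EGF, TGFα and related ligands in place of neuregulins. In the forebrain, ErbB4 is best known from GABAergic interneurons, where it acts in the formation of excitatory synapses onto them, and ErbB3 from cells of the oligodendrocyte lineage. Mossy cells are glutamatergic neurons of the dentate hilus that contact granule cells and interneurons.

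After filtering, 123907 nuclei remained of 134019 barcodes (43527 NP, 39196 control RE, 41184 stress RE). Libraries held 40602582 to 96211264 UMIs (unique molecular identifiers, each a counted RNA molecule), with a median of 3993 to 8754 UMIs per nucleus. NP mouse 31 was the shallowest library on both measures. A barcode sequence found in more than 1 library was carried by 3786 of the nuclei kept (3.06%). Nuclei were clustered without the 6 genes and named from marker lists, which gave 26 classes, some of them from tissue around the dHF (thalamic, habenular, striatal-type, choroid plexus, ependymal). Whether the GABAergic classes marked by Gata3 or Otx2 and the astrocytes marked by Slc6a11 lay in or around the dHF was not tested. The class named CA3 was cluster 18, where all 7 CA3 markers were detected but none was among the 10 genes highest by fold, which held Ccdc3 of the CA2 list, and likewise cluster 13, 1 of the 3 clusters of oligodendrocytes, held Enpp6 of the newly formed list and none of its own 8 markers there. The other oligodendrocyte clusters, 11 and 12, also held none of the 8 markers there. Erbb3 is therefore also given by group within each oligodendrocyte cluster. All other values by group and all tests of oligodendrocytes pool the 3 clusters. Levels are CPM, the summed UMIs of a gene scaled to a common total of UMIs for each class and mouse, averaged over mice that had 10 or more nuclei of that class and given with the SD over mice. They were not scaled by gene length, so levels are compared between classes and mice and not between genes.

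Erbb4, on chromosome 1 (chr1:68032186-69108059 in GRCm38, minus strand, 1075.9 kb), was highest in GABAergic interneurons, at 7349 CPM ± 1274 (n = 15 mice). Interneurons were 2.32% of nuclei and held 38% of all Erbb4 UMIs. Next in order were newly formed oligodendrocytes (4181 CPM ± 1021, n = 15), astrocytes marked by Slc6a11 (3325 CPM ± 368, n = 15) and oligodendrocyte precursor cells (3270 CPM ± 388, n = 15). Mature oligodendrocytes had 2124 CPM ± 178 (n = 15) and, being 23.0% of nuclei, held 21.2% of Erbb4 UMIs. Their clusters 11, 12 and 13 had 2413, 2501 and 1422 CPM, pooled over nuclei. The astrocytes marked by Gldc had 401 CPM ± 101 (n = 15), below every mouse's level in the Slc6a11 astrocytes. Excitatory classes of the hippocampus stood at the lower end, from 77.7 CPM ± 50.0 (n = 15) in dentate granule neurons to 37.4 CPM ± 20.6 (n = 15) in CA2 neurons. The ranges over mice of each pair of neighbours in this order overlapped, as the plot of Erbb4 by class and mouse shows.

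**Figure D1:**
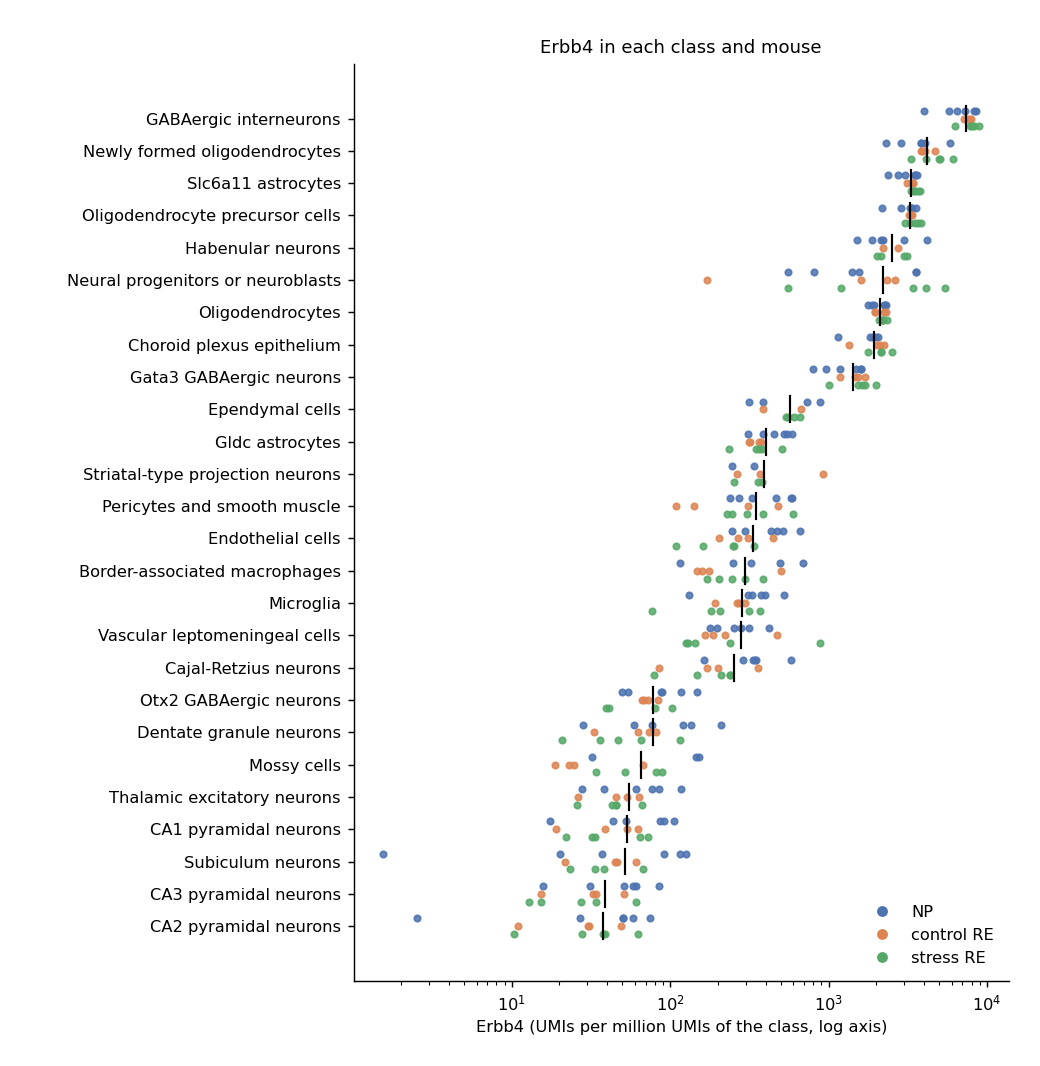
Erbb4 level in 26 classes, in CPM on a log axis, with 1 point per mouse with at least 10 nuclei, coloured by group, and a black line at the mean over mice. Interneurons lie highest, with a mean of 7349, and the excitatory classes of the hippocampus lie between means of 37.4 and 77.7.

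Among interneurons, clustered again without the 6 genes, Lamp5 interneurons had the highest Erbb4 level at 12242 CPM ± 2322 (n = 15). Pvalb interneurons, the fast-spiking perisomatic cells, had 10252 CPM ± 2538 (n = 14), and the ranges of these subtypes overlapped. Vip or Cck interneurons had 4987 CPM ± 920 (n = 15) and Sst interneurons, which target dendrites, 1616 CPM ± 734 (n = 15). Within the interneuron class, NP mouse 31 was lowest in Erbb4 at 4007 CPM, and the 3 mice of batch 1 had 4007 to 6244 CPM against 6502 to 8906 CPM in the 12 mice of batches 2 and 3. The synthesis enzymes of GABA did not show this in the same nuclei, as Gad1 stood at 455 to 552 CPM in batch 1 and 386 to 597 CPM in batches 2 and 3. Nrg3 in these nuclei was lower by its mean in batch 1, at 4127 CPM (3634 to 4741) against 5163 CPM (4437 to 5833). What part batch or depth has in the Erbb4 levels of these mice was not tested.

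Interneuron Erbb4 was 4007, 5752, 6502, 7306, 8334 and 8514 CPM in NP mice. Control RE mice had 7151, 7615, 7783 and 7879 CPM, and stress RE mice 6244, 7857, 8047, 8335 and 8906 CPM. The 3 groups overlapped, with control RE mice within the NP range, 1 stress RE mouse above it and the lowest stress RE mouse below 4 of the 6 NP mice. The log2 difference was 0.21 (SE 0.19) for control RE minus NP, 0.04 (SE 0.20) for stress RE minus control RE and 0.25 (SE 0.18) for stress RE minus NP, with an adjusted p by edgeR of at least 0.937 in each. With batch as a term these were 0.05, 0.16 and 0.21, and without the mice of batch 1 they were −0.01, 0.12 and 0.11.

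Erbb3 (chr10:128567523-128589652, minus strand) followed the oligodendrocyte lineage. Newly formed oligodendrocytes had 86.2 CPM ± 26.7 (n = 15), oligodendrocytes 76.2 CPM ± 11.1 (n = 15) and oligodendrocyte precursor cells 27.9 CPM ± 5.39 (n = 15), with no overlap between the precursors and the mature cells over mice. Every other class had a mean of at most 6.22 CPM. Oligodendrocytes held 80.5% of all Erbb3 UMIs. Erbb3 was 36.9 to 104.3 CPM in NP, 54.9 to 79.3 CPM in control RE and 53.4 to 81.7 CPM for stress RE mice in oligodendrocyte cluster 11. The same groups had 64.6 to 101.0, 61.4 to 92.4 and 69.7 to 82.5 CPM in cluster 12 and 56.9 to 93.3, 49.4 to 81.0 and 71.3 to 87.7 CPM in cluster 13, so they overlapped in each.

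Egfr (chr11:16752203-16918158, plus strand) had its highest means in both astrocyte classes. It had 463 CPM ± 52.2 (n = 15) in the Slc6a11 astrocytes and 279 CPM ± 27.8 (n = 15) in the Gldc astrocytes, and the lowest mouse of the former (343 CPM) was above the highest of the latter (325 CPM). Neural progenitors or neuroblasts had 183 CPM ± 130 (n = 15) and border-associated macrophages 155 CPM ± 70.7 (n = 14). Vascular leptomeningeal cells had 139 CPM ± 48.6 (n = 15) and interneurons 134 CPM ± 26.8 (n = 15). Single mice reached 447 CPM in progenitors or neuroblasts and 602 CPM in ependymal cells, above every mouse's level in the Gldc astrocytes. Within interneurons, Egfr was 329 CPM ± 72 (n = 15) in Lamp5 and 83.2 CPM ± 29.5 (n = 15) in Vip or Cck interneurons. Pvalb interneurons had 11.2 CPM ± 11.0 (n = 14) and Sst interneurons 1.54 CPM ± 1.61 (n = 15), and every mouse of either lay below every Lamp5 value. Lamp5 interneurons were thus high in both Erbb4 and Egfr, while Pvalb interneurons were high in Erbb4 alone, as seen in the plot of interneuron subtypes. The pairing was not particular to Lamp5 interneurons. Within Vip or Cck interneurons, the cluster richest in Vip (195 nuclei) had 10206 CPM of Erbb4 and 457 CPM of Egfr, pooled over its nuclei. The other clusters of that subtype had 0.0 to 45.8 CPM of Egfr.

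**Figure D2:**
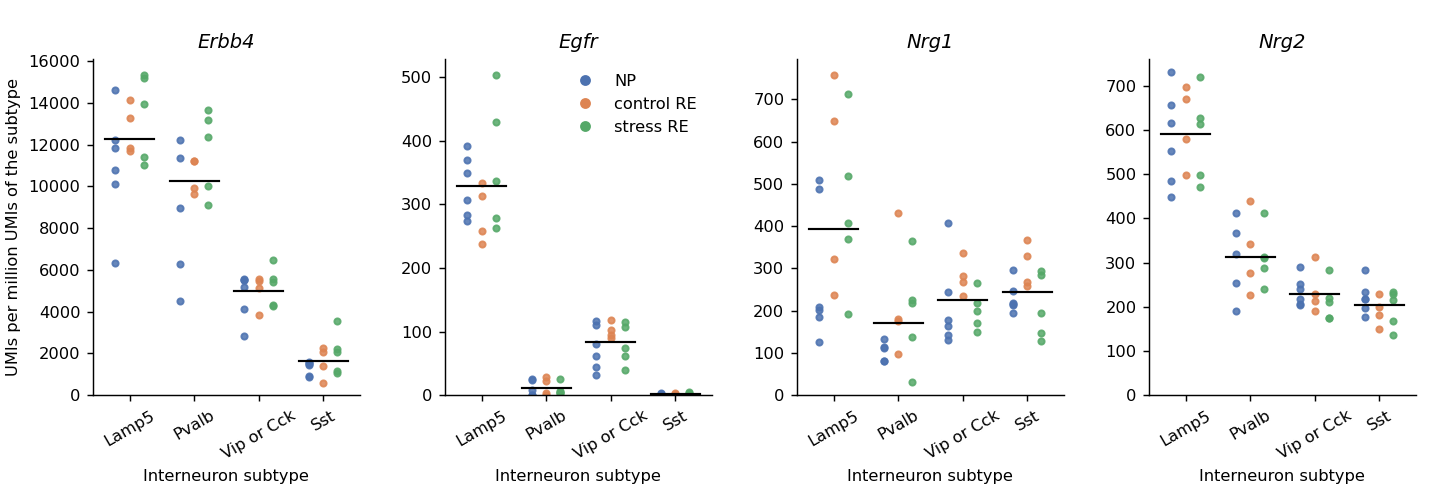
Erbb4, Egfr, Nrg1 and Nrg2 in 4 interneuron subtypes, in CPM on linear axes from 0, with 1 point per mouse with at least 10 nuclei, coloured by group, and a black line at the mean. Lamp5 interneurons have the highest mean for each gene, and Sst interneurons the lowest for Erbb4 (1616), Egfr (1.54) and Nrg2 (205).

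The ligand Nrg1 (chr8:31814551-32884029, minus strand) was highest in neurons. A GABAergic class marked by Otx2 had 8482 CPM ± 761 (n = 14), striatal-type projection neurons 6988 CPM ± 628 (n = 8) and Cajal-Retzius neurons, the Reln-secreting cells of the hippocampal margin, 4193 CPM ± 530 (n = 15). Dentate granule neurons had 986 CPM ± 122 (n = 15) and held 32.7% of Nrg1 UMIs. CA1 neurons had 680 CPM ± 129 (n = 15), CA2 neurons 71.7 CPM ± 33.3 (n = 15) and CA3 neurons 51.9 CPM ± 17.0 (n = 15). Interneurons, the class highest in the receptor Erbb4, had 268 CPM ± 88.3 (n = 15).

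The class named after the subiculum list held 2 kinds of nuclei, as examined after its values were seen. When the 6 genes were left among the clustering genes, 527 of its nuclei (26.9%) formed a cluster with the subiculum marker Fn1 at 216 CPM, and 1430 (73%) fell into a cluster that no marker list named, with Fn1 at 4.80 CPM and Foxp2 at 360 CPM. The unnamed kind was 0 to 62.2% of the class in NP mice, 41.9 to 92.5% in control RE mice and 3.57% to all of it in stress RE mice. Nrg1 was 107 to 337 CPM over mice in the nuclei with subiculum markers and 3584 to 7859 CPM in the unnamed ones, a difference that Nrg1, as a clustering gene, helped to set. Over the whole class Nrg1 ran from 135 CPM in NP mouse 37, with none of the unnamed kind, to 4860 CPM in stress RE mouse 75, with 1 nucleus of the other kind, so its values there are not read as a level of subiculum neurons.

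Nrg2 (chr18:36017652-36197380, minus strand) was highest in dentate granule neurons at 490 CPM ± 38.1 (n = 15), which held 60.1% of its UMIs. Striatal-type projection neurons had 440 CPM ± 50.8 (n = 8) and interneurons 350 CPM ± 50.7 (n = 15), with 591 CPM ± 94.6 (n = 15) in the Lamp5 subtype. CA1, CA3 and CA2 neurons had 85.3, 63.2 and 20.5 CPM. In granule neurons the groups overlapped, with 492.7 CPM ± 38.1 in NP (n = 6), 489 CPM ± 44.9 in control RE (n = 4) and 487 CPM ± 41.6 for stress RE mice (n = 5).

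Nrg3 (chr14:38368952-39473088, minus strand) had a mean of at least 4520 CPM in every neuron class except striatal-type projection neurons (1982 CPM ± 149, n = 8). The class named CA3 (cluster 18) had 7393 CPM ± 1029 (n = 15), mossy cells 7277 CPM ± 823 (n = 11) and CA2 neurons 7167 CPM ± 1263 (n = 15), and these classes overlapped. Granule neurons had 5565 CPM ± 435 (n = 15), CA1 neurons 5351 CPM ± 542 (n = 15) and interneurons 4956 CPM ± 562 (n = 15). Oligodendrocytes (1353 CPM ± 519, n = 15) and both astrocyte classes (1102 CPM ± 472 and 1026 CPM ± 422, n = 15 each) were lower. NP mouse 31 had the lowest Nrg3 level of all mice in 9 of 11 neuron classes. CA2 and CA3 neurons thus stood high among the classes in Nrg3 and low in Nrg1 and Nrg2.

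**Figure D3:**
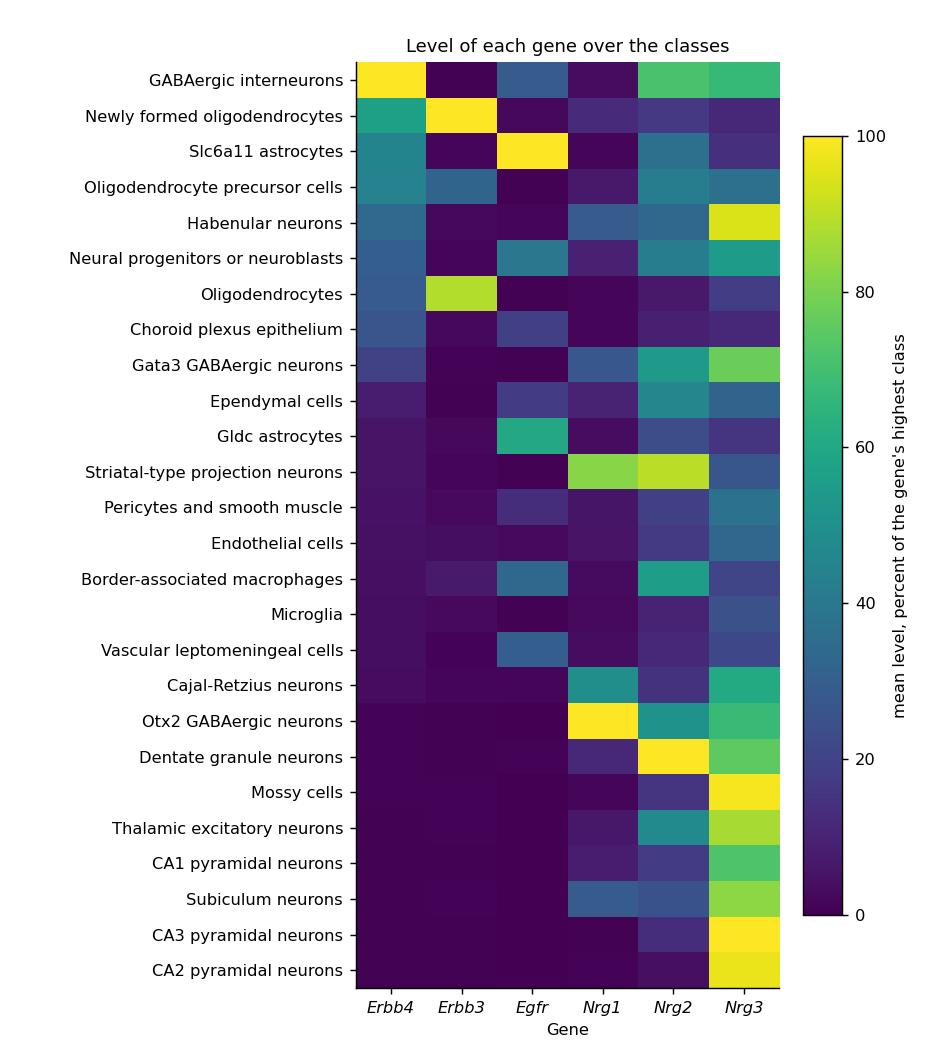
Mean level of each gene over 26 classes as a percentage of the gene's own highest class, on a linear colour scale from 0 to 100, with classes in the order of their Erbb4 level. Erbb4 peaks in interneurons, Erbb3 in newly formed oligodendrocytes, Egfr in Slc6a11 astrocytes, Nrg1 in Otx2 GABAergic neurons, Nrg2 in dentate granule neurons and Nrg3 in CA3 neurons.

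The genes with the most similar pattern over the 26 classes were found by Pearson's r of log2(CPM + 1) among 15697 genes, as a description, since the classes share libraries. For Erbb4 these were Sox2ot (r = 0.82), Dusp10 (0.76) and Sox6 (0.76). Erbb3 was matched by Gm10863 (0.96), Cyp3a13 (0.96) and Sox10 (0.95), and Nrg1 by Bex1 (0.82), Gm45304 (0.82) and Arhgap20 (0.78). Egfr had Egfros (0.95), Phax (0.84) and Atf5 (0.82), Nrg2 had 4930471G03Rik (0.95), Lrtm2 (0.79) and Stk32c (0.77), and Nrg3 had Gm20642 (0.98), Syn1 (0.97) and Nrg3os (0.96). Of these, Egfros, 4930471G03Rik, Gm20642 and Nrg3os are antisense genes that overlap the member they resemble. Whether the counting used strand is not given in the sources used here, so reads of these pairs may not be told apart.

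The mossy class held 254 nuclei (64 NP, 98 control RE, 92 stress RE) with a median of 21523 UMIs. It was led by Csf2rb2 at 187 CPM, with Drd2 at 66.4 CPM and the glutamate transporter Slc17a7 at 234 CPM, and 5 of its 9 markers passed detection. The hilar marker Calb2 was low at 4.18 CPM, and the list that came next was that of CA3, whose 7 markers summed to 2076 to 2706 CPM in mossy nuclei of the 11 mice with at least 10 such nuclei. The mossy name therefore rests on part of its list.

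Erbb4 in mossy cells was 147, 31.9 and 151 CPM in NP mice 27, 35 and 73. Control RE mice 66, 72, 87 and 88 had 18.7, 23.1, 24.6 and 67.5 CPM, and stress RE mice 43, 75, 77 and 90 had 51.7, 81.0, 33.9 and 89.2 CPM. Both high NP mice lay above all other mice, whereas NP mouse 35 lay within the range of control RE, so the groups overlapped. The means were 110 CPM ± 67.5 (n = 3) in NP, 33.5 CPM ± 22.8 (n = 4) in control RE and 64.0 CPM ± 25.7 (n = 4) for stress RE mice. Behind these values stood 6 to 108 Erbb4 UMIs and 10 to 41 nuclei per mouse.

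The other 4 mice had fewer than 10 mossy nuclei and did not enter the fit. NP mouse 31 had 60.1 CPM (3 nuclei), NP mouse 63 had 65.8 CPM (9 nuclei) and stress RE mouse 70 had 51.1 CPM (9 nuclei). In NP mouse 37, 0 Erbb4 UMIs were counted among 83204 UMIs of 3 nuclei, which allows up to 36.1 CPM.

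The difference on which the genes were chosen, control RE minus NP, was −1.77 on the log2 scale (SE 0.42). With 1 mouse left out it ran from −2.34 (without control RE mouse 88) to −1.48 (without NP mouse 73), which is no support for a value that the choice of genes rests on. Within batch 2, control RE mice averaged 45.3 CPM and the single NP mouse with at least 10 mossy nuclei had 31.9 CPM, the opposite direction. Within batch 3, control RE mice averaged 21.6 CPM against 151 CPM in the single such NP mouse. These directions depend on the limit of 10 nuclei. NP mouse 63 of batch 2 had 65.8 CPM in 9 nuclei, and NP mouse 37 of batch 3 had 0 Erbb4 UMIs in 3 nuclei. Stress RE minus control RE was 0.91 (SE 0.42, unadjusted p = 0.0408, adjusted p = 0.9995 by edgeR), and stress RE minus NP was −0.86 (SE 0.38, unadjusted p = 0.0336, adjusted p = 0.948 by edgeR). Neither passed after adjustment. Each of these 2 contrasts uses the control RE or NP values on which the genes were chosen, so its p-value is biased by that choice. The p-values are printed only because both tests enter the counts over classes given below, and no difference is read from them. An unadjusted p under 0.05 was reached by 3.76% of all genes tested in mossy cells for stress RE minus control RE and by 4.91% for stress RE minus NP. Those genes were not chosen by such values, so the shares are no measure for the 2 Erbb4 tests.

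A few nuclei carried much of the signal. Of the 254 mossy nuclei, 141 had no Erbb4 UMI, 57 had 1 and 33 had 2 to 3, while 8 nuclei with at least 10 held 188 UMIs and the 15 with 4 to 9 held 89. In stress RE mouse 90, 1 nucleus held 48 of 58 Erbb4 UMIs (82.8%), and in stress RE mouse 75, 1 nucleus held 21 of 30. Without the highest nucleus of each mouse, the means were 81.4 CPM ± 49.2 in NP, 22.6 CPM ± 13.4 in control RE and 24.3 CPM ± 8.50 for stress RE mice. The log2 difference of stress RE minus control RE then fell from 0.91 to 0.02 (SE 0.43), control RE minus NP stood at −1.89 and stress RE minus NP at −1.87.

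Interneuron RNA in mossy nuclei was followed by Gad1 and Gad2, the enzymes that make GABA, which were counted by 1 to 30 UMIs per mouse. Their summed level was 15.8, 10.6 and 41.9 CPM in NP, 3.12, 3.31, 7.02 and 2.25 CPM in control RE and 6.47, 18.9, 27.1 and 1.54 CPM for stress RE mice, each in the order given above. Among these mice NP lay above control RE, and stress RE mice spanned both. Of the mice with fewer than 10 mossy nuclei, NP mouse 63 had 23.5 CPM and stress RE mouse 70 had 7.86 CPM, while NP mice 31 and 37 had no Gad1 or Gad2 UMI in 3 nuclei each, which allows up to 60.1 and 36.1 CPM and so gives them no place in this order. Control RE minus NP came to −18.9 CPM. Stress RE minus control RE was 9.59 CPM (two-sided exact permutation test over mice, p = 0.257) and stress RE minus NP −9.27 CPM (exact p = 0.457, where 4 against 3 mice allow no p below 0.0571). Within batches 2 and 3, control RE minus NP was −7.85 and −36.9 CPM, each with a single NP mouse. Taken apart, mean Gad1 was 9.89 CPM in NP, 3.65 CPM in control RE and 5.34 CPM for stress RE mice. Mean Gad2 was 12.9, 0.28 and 8.17 CPM in the same order. Interneurons had 473 CPM of Gad1 and 507 CPM of Gad2, and dentate granule neurons 51.6 and 7.29 CPM. Which class these UMIs came from was not tested.

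The summed level of 10 interneuron markers, of which Vip was at 0 in all mice, was 101 to 274 CPM in NP, 49.9 to 94.5 CPM in control RE and 40.7 to 162 CPM for stress RE mice. By these markers too NP lay above control RE, and stress RE mice overlapped both. The 8 oligodendrocyte markers summed to 58.5 to 271 CPM in NP, 53.1 to 128 CPM in control RE and 47.7 to 219 CPM for stress RE mice, with overlap between all groups. The 6 markers of oligodendrocyte precursors, of which C1ql1 was at 0, summed to 101 to 113, 42.1 to 110 and 53.8 to 81.9 CPM, so that NP lay above stress RE mice and overlapped control RE mice. The part of these sources in the mossy Erbb4 level was not tested.

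Had the Gad1 and Gad2 UMIs come with as much Erbb4 as in interneurons of the same mouse, mossy nuclei would hold 86.2, 83.5 and 298 CPM of Erbb4 in NP, 25.7, 26.6, 61.5 and 19.6 CPM in control RE and 52.6, 134, 259 and 14.2 CPM for stress RE mice. It exceeded the measured level in all mice but NP mouse 27, control RE mouse 88 and stress RE mouse 90. The counting intervals (95%, exact Poisson, covering counting error only) of measured and expected level overlapped in 9 of 11 mice, and in NP mouse 73 and stress RE mouse 77 the measured level lay below the expected one. In no mouse did the measured interval lie above the expected one. Only 1 to 3 Gad1 and Gad2 UMIs stood behind the expected level in every control RE mouse. The same held for NP mouse 35 and stress RE mice 43 and 90. At such counts the expected intervals are wide, so an overlap there cannot tell the levels apart. The expected level takes interneurons as the one source. Oligodendrocytes would bring Erbb4 with little Gad1 or Gad2, and dentate granule neurons, with 51.6 CPM ± 6.70 of Gad1 (n = 15) and a Gad1 or Gad2 UMI in 34.6% of nuclei, would bring Gad1 with little Erbb4, so the expected level can be too low or too high.

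Nuclei with a Gad1 or Gad2 UMI were 14 of 64 in NP, 7 of 98 in control RE and 10 of 92 for stress RE mice. Without them, Erbb4 was 158, 38.6 and 182 CPM in NP, 17.2, 18.3, 25.9 and 67.7 CPM in control RE and 37, 29.4, 34.6 and 90.5 CPM for stress RE mice in the same order. The levels of NP mice were higher without these nuclei, and the log2 difference of control RE minus NP was −2.30. For stress RE minus NP it was −1.65 and for stress RE minus control RE 0.65. Interneurons had 7349 CPM of Erbb4 but 473 CPM of Gad1 and 507 CPM of Gad2. A nucleus without a Gad1 or Gad2 UMI can therefore still hold Erbb4 from interneurons. Leaving out nuclei with such a UMI is thus no test of interneuron RNA in mossy nuclei.

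**Figure D4:**
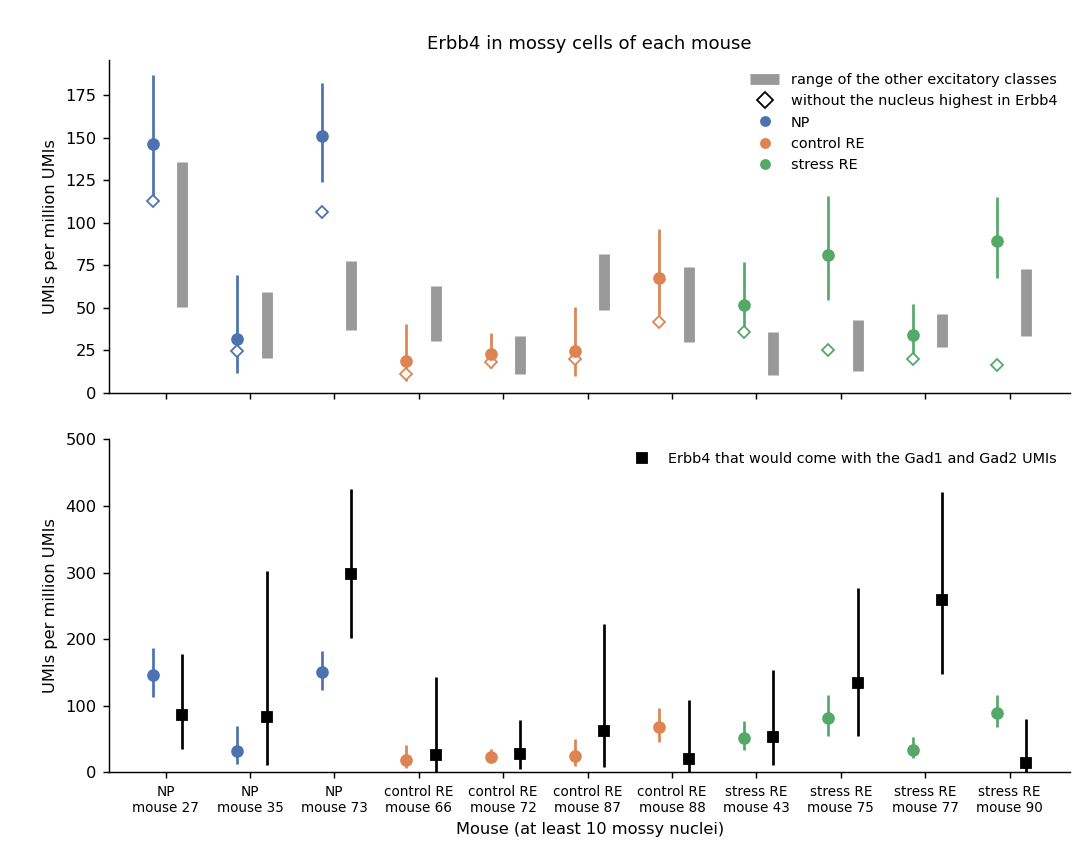
Erbb4 in mossy cells of the 11 mice with at least 10 mossy nuclei, in CPM on linear axes, with 95% Poisson intervals. The upper panel adds the level without the highest nucleus (diamonds) and the range of the excitatory classes set beside them in the same mouse (grey bars), and the lower panel adds the Erbb4 level that would come with the Gad1 and Gad2 UMIs (squares). In stress RE mouse 90 the level falls from 89.2 to 16.4 without 1 nucleus, and in NP mouse 73 the expected level of 298 lies above the measured 151.

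The share of mossy nuclei with an Erbb4 UMI was 73.7, 50.0 and 70% in NP, 18.8, 26.8, 33.3 and 53.8% in control RE and 53.3, 17.4, 50.0 and 40.0% for stress RE mice, in the order of mice above, so the groups overlapped. Pooled over the nuclei of each group, 42 of 64 nuclei had one in NP (65.6%), 33 of 98 in control RE (33.7%) and 38 of 92 for stress RE mice (41.3%). The median depth of these nuclei was 23758.5, 17259.5 and 24127.5 UMIs. Thinned to 1000 UMIs per nucleus, the shares were 6.25, 3.06 and 3.26%, or 3.94% over all, with no nucleus too shallow. Microglia, a class that lacks a neuronal programme, had 41.3% of nuclei with an Erbb4 UMI at a median of 2054.5 UMIs, and 23.7% after thinning. By group, microglia had 51.6% in NP, 38.1% in control RE and 32.9% for stress RE mice before thinning, and 28.4, 23.2 and 18.8% after it. Mossy cells thus lay above microglia in NP and stress RE mice as counted and below them in all groups once thinned, and as the depths differ, no order between these classes is read from the shares.

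Over mice, the share of mossy nuclei with an Erbb4 UMI differed by 6.99 percentage points for stress RE minus control RE. Stress RE minus NP was −24.4 points and control RE minus NP −31.4 points (−3.84 and −4.40 points after thinning). All are given with no test, since they rest on the NP or control RE values that chose the genes.

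Mossy cells were set beside 6 other excitatory classes of the same mouse (granule, CA1, CA2, CA3, subiculum and thalamic neurons, the subiculum class being too small in stress RE mouse 43). Habenular neurons, also excitatory, at 2512 CPM ± 726 of Erbb4 (n = 12), were left out. The mossy Erbb4 level lay above all of the 6 in 5 of 11 mice, 2 of 3 NP, 0 of 4 control RE and 3 of 4 stress RE mice. Cluster 18, the class named CA3, with a similar depth at a median of 17101 UMIs, had 50.3 CPM ± 24.3 in NP (n = 6), 33.3 CPM ± 14.6 in control RE (n = 4) and 29.9 CPM ± 19.2 for stress RE mice (n = 5). Its log2 difference of control RE minus NP was −0.52 (SE 0.45, adjusted p = 0.946 by edgeR), −0.11 with batch as a term and −0.27 without batch 1.

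Erbb4 estimates in other classes were then counted by sign. Of 14 tested classes with a mean under 1000 CPM, mossy cells left out, 14 had a lower Erbb4 estimate in control RE than in NP mice, with a median log2 difference of −0.52, while 7 of 8 classes with at least 1000 CPM had a higher one (median 0.11). With batch as a term, 12 of 14 were lower (median −0.15) and 3 of 8 higher (median −0.0023), and without the mice of batch 1, 14 of 16 were lower (median −0.23) and 1 of 9 higher (median −0.04). The size of the difference in the lower classes thus fell by more than 1.5 times with batch taken into account, and the median of the others turned. For stress RE minus NP, 14 of 16 classes under 1000 CPM, mossy cells included, were lower (median −0.57) and 9 of 9 of the others higher (median 0.25). With batch as a term the counts were 14 of 16 (median −0.49) and 9 of 9 (median 0.16), and without batch 1 they were 15 of 17 (median −0.52) and 8 of 9 (median 0.11). For stress RE minus control RE, which does not involve NP mice, the classes under 1000 CPM split into 8 lower and 8 higher (median −0.03), and 8 of 8 of the others were higher (median 0.08). Of the former, 12 of 16 were lower with batch as a term (median −0.26, and 0.16 in the others) and 13 of 17 without batch 1 (median −0.27, and 0.12 in the others). What part batch has in these counts was not tested. The limit of 1000 CPM was set after the values were seen, and each contrast shares mice with the others. Within a contrast the classes also come from the same mice, so their signs are not independent. How often other genes have as uniform a sign was not tested. Endothelial cells, where NP mice had 247 to 663 CPM, control RE mice 203 to 448 CPM and stress RE mice 109 to 337 CPM, differed by −0.99 for stress RE minus NP (SE 0.30, unadjusted p = 0.00382, adjusted p = 0.9998 by edgeR). In microglia Erbb4 was 132 to 521 CPM in NP, 192 to 298 CPM in control RE and 76.5 to 370 CPM for stress RE mice. NP mouse 31 had the highest Erbb4 level in the 6 excitatory classes set beside mossy cells and the lowest in all 4 of the classes richest in Erbb4 (interneurons, newly formed oligodendrocytes, Slc6a11 astrocytes and precursors). The part of free RNA in these differences was not tested.

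Neuregulins in mossy cells were also counted. Nrg1 was 196, 26.6 and 375 CPM in NP, 53.1, 62.8, 80.7 and 119 CPM in control RE and 66.8, 200, 35.6 and 61.5 CPM for stress RE mice, in the order of mice above. NP mice 27 and 73, the mice high in Erbb4, were again high, stress RE mouse 75 lay between them, and NP mouse 35 was the lowest of these mice. Of the mice with fewer than 10 mossy nuclei, NP mice 31, 37 and 63 had 120, 72.1 and 51.7 CPM and stress RE mouse 70 had 62.9 CPM. Control RE minus NP was −1.41 (SE 0.49, no test), and stress RE minus NP was −1.31 (SE 0.48, unadjusted p = 0.0128, adjusted p = 0.948 by edgeR). Nrg3 was 5819, 6653 and 6725 CPM in NP, 6192 to 8454 CPM in control RE and 7515 to 8037 CPM for stress RE mice. Among these mice stress RE lay above NP, with a log2 difference of 0.34 (SE 0.13, unadjusted p = 0.0147, adjusted p = 0.948 by edgeR), and 0.24 with batch as a term. The mice with fewer than 10 mossy nuclei did not follow this, as stress RE mouse 70 had 6426 CPM and NP mice 31, 37 and 63 had 3909, 8533 and 6873 CPM. Nrg2 was 72.1 to 119 CPM in NP, 45.6 to 84.3 CPM in control RE and 51.3 to 88.4 CPM for stress RE mice. For stress RE minus NP, 4.91% of all genes tested in mossy cells had an unadjusted p under 0.05 by edgeR.

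Across classes, with the filter on low counts, none of the 6 genes changed at an adjusted p under 0.05 in any contrast by edgeR, nor by DESeq2. Without that filter edgeR called 0 of 132 of their tests for control RE minus NP (beside 0.0244% of all genes), 3 of 144 for stress RE minus control RE (2.08%, beside 0.0897% of all genes) and 6 of 150 for stress RE minus NP (4.0%, beside 0.077%), in classes of few counts and in mossy cells. Without the filter the tests of all genes rose from 221367 to 548273 for stress RE minus NP, by genes of low counts. Those of the 6 genes rose from 114 to 150. The shares without the filter thus rest on unlike sets of genes, and no excess of the 6 genes is read from them. For control RE minus NP, 22 classes gave 102 tests of the 6 genes, of which 6 (5.88%, 4 higher and 2 lower) had an unadjusted p under 0.05, beside 3.17% of all genes tested in these classes, of which 0.0% passed after adjustment. For stress RE minus control RE, 6 of 110 tests in 24 classes did (5.45%, 2 higher and 4 lower), beside 2.91% of all genes, of which 0.000454% passed after adjustment (1 gene, in oligodendrocyte precursor cells). For stress RE minus NP, 13 of 114 tests in 25 classes did (11.4%, 4 higher and 9 lower), beside 3.72% of all genes, of which 0.0% passed after adjustment. Some of these tests are those of mossy cells, whose control RE and NP values chose the genes. Without mossy cells the counts were 5 of 106 for stress RE minus control RE (4.72%, beside 2.88% of all genes) and 10 of 110 for stress RE minus NP (9.09%, beside 3.69%). The tests of a gene in several classes share mice, and the plot of log2 differences by gene shows each of them.

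**Figure D5:**
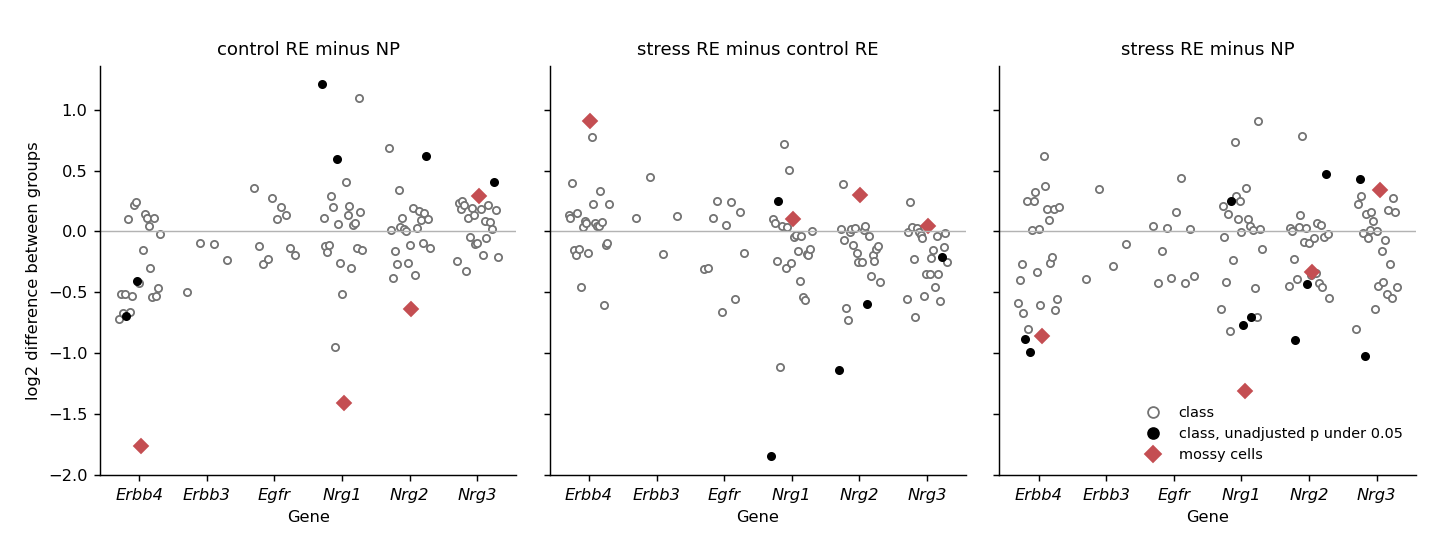
Log2 difference of the 6 genes between groups in each class tested, with 1 panel per contrast, open circles for classes, filled circles for classes with an unadjusted p under 0.05 and red diamonds for mossy cells, whatever their p. No tested point passed an adjusted p under 0.05, and the mossy Erbb4 difference of control RE minus NP, at −1.77, is the difference on which the genes were chosen.

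Nrg1 in interneurons was 176 to 290 CPM in NP, 225 to 428 CPM in control RE and 169 to 373 CPM for stress RE mice. Control RE minus NP was 0.59 (SE 0.24, unadjusted p = 0.0240, adjusted p = 0.937 by edgeR), with overlapping groups, and 0.41 without the mice of batch 1. In Pvalb interneurons it was 1.18 (SE 0.45, unadjusted p = 0.0171, adjusted p = 0.906 by edgeR), with 80.6 to 133 CPM in NP and 431, 97.9, 175 and 179 CPM in control RE mice, the second of them within the NP range. The log2 ratio of the group means was 1.08, and 0.53 without control RE mouse 66, a setting chosen after the values were seen. In border-associated macrophages, a class of few counts, Nrg1 was 1222 CPM in control RE mouse 88 and at most 273 CPM in every other mouse.

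In the class named after the subiculum, whose make-up differed between mice as given above, Nrg2 was 0.62 higher in control RE than in NP mice on the log2 scale (SE 0.19, unadjusted p = 0.00559, adjusted p = 0.572 by edgeR) and Nrg3 0.40 higher (SE 0.16, unadjusted p = 0.0265, adjusted p = 0.591 by edgeR). Within the nuclei with subiculum markers, Nrg2 was 47.9 to 81.9 CPM in NP and 37 to 102.2 CPM in control RE mice. Within the unnamed nuclei it was 161 to 201.4 CPM in NP and 185.1 to 210.8 CPM in control RE mice, so that in both kinds the groups overlapped. Nrg3 was 3366 to 5568 CPM in NP and 5052 to 6050 CPM in control RE mice in the former and 5607 to 7505 CPM and 7458 to 8531 CPM in the latter, again with overlap. In CA2 neurons, which lie between CA1 and CA3, Nrg3 was 4599 to 8425 CPM in NP and 7675 to 8582 CPM for stress RE mice, a difference of 0.43 (SE 0.15, unadjusted p = 0.00715, adjusted p = 0.716 by edgeR). The estimate was 0.41 with batch as a term and 0.29 without batch 1. Counted by sign, the Nrg3 estimate for stress RE minus control RE was negative in 20 of 24 classes, with a median log2 difference of −0.18. With batch as a term it was negative in 15 of 24. These classes come from the same mice, so their signs are not independent. How uniform the signs of other genes are was not tested.

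Of 24 further genes of ErbB signalling, 20 were tested in at least 1 class. Erbb2, the partner receptor without a ligand of its own, and the ligands Areg, Ereg and Epgn did not pass the filter on low counts, and Erbb2 had at most 9.32 CPM as a class mean (vascular leptomeningeal cells). None of the 20 passed an adjusted p under 0.05 by edgeR or DESeq2. Unadjusted, 15 of 320 tests (4.69%, 6 higher and 9 lower) were under 0.05 for control RE minus NP, beside 3.17% of all genes. For stress RE minus control RE 13 of 351 were (3.7%, 8 higher and 5 lower), beside 2.91%, and for stress RE minus NP 10 of 351 (2.85%, 4 higher and 6 lower), beside 3.72%.

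Of the other ligands, Tgfa, which binds Egfr, was highest in oligodendrocyte precursor cells (171 CPM ± 16.6, n = 15) and next in striatal-type projection neurons (143 CPM ± 14.3, n = 8), while Nrg4 and Egf were highest in habenular neurons (21.6 CPM ± 12.9 and 24.4 CPM ± 18.1, n = 12). Among the proteases that release or cut neuregulins, Adam10 (289 CPM ± 45.6) and Adam17 (161 CPM ± 24.4) were highest in microglia and Bace1 in newly formed oligodendrocytes (110 CPM ± 27.3, n = 15 each). Adam10 in the Otx2 neurons stood at 107 CPM in control RE against 62.2 CPM in NP mice (0.70, SE 0.20, unadjusted p = 0.00212, adjusted p = 0.9998 by edgeR). Adam17 in CA1 neurons was 16.5 CPM in stress RE against 21.7 CPM in NP mice (−0.34, SE 0.11, unadjusted p = 0.00699, adjusted p = 0.9999 by edgeR).

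Lrig1, which lowers ErbB receptor levels, was 714 CPM ± 77.3 in the Slc6a11 astrocytes and 90.6 CPM ± 11.1 in the Gldc astrocytes (n = 15), in the same order as Egfr and Erbb4. Erbin, a scaffold that binds ErbB receptors, had 1069 CPM ± 138 and the adaptor Gab1 766 CPM ± 101 in oligodendrocytes (n = 15), the class that held most Erbb3 UMIs. The ubiquitin ligase Itch was also highest there (433 CPM ± 38.2, n = 15). Dlg4, which encodes PSD-95 and binds ErbB4 at synapses, was highest in CA1 neurons (163 CPM ± 30.9, n = 15) and Pik3r1, a subunit of PI3 kinase, in microglia (417 CPM ± 39.0, n = 15). In interneurons Dlg4 stood at 79.1 CPM and Gab1 at 8.80 CPM.

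Summed over all nuclei of a library, the 6 genes did not separate the groups. In such sums, fewer cells of a type and less RNA per cell cannot be told apart. Erbb4 was 680 to 1097 CPM over the 15 mice (828 CPM ± 123), with 832 CPM ± 121 in NP, 775 CPM ± 93.7 in control RE and 866 CPM ± 152 for stress RE mice. Nrg3 was 3703 CPM in NP mouse 31 and up to 5866 CPM in stress RE mouse 90. Of 18 two-sided exact permutation tests, the lowest p was 0.0563 (Egfr, 22.5 CPM in stress RE against 26.2 CPM in NP mice) and the lowest adjusted p 0.514.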

How the data were processed

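Nuclei from dHF punches of 15 female mice were profiled with the 10x 3′ kit. The authors deposited 1 matrix of unnormalized UMI counts per mouse. Per the labels the counts were made with Cell Ranger 7.1.0, while the file headers name 7.0.0, and the genome builds listed are mm10 and GRCm39. Strand use in counting is not given in the sources used here. Cells are not replicates, and the replicate is the mouse.

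From these counts, nuclei with at least 200 genes and at most 5% mitochondrial UMIs were kept, and the top Scrublet doublet scores of each library were removed (0.8% per 1000 barcodes). Nuclei were clustered with scanpy 1.11.5 (2000 variable genes without the 6 members, 30 components, Leiden resolution 1.0) and named from marker lists. No cell annotation was used, so names are rebuilt and may differ from the study's. Counts were summed per mouse and class (at least 10 nuclei per mouse, 3 mice per group) and tested over all genes with edgeR 4.0.16 (quasi-likelihood, TMM, filter on low counts, Benjamini-Hochberg per class and contrast, adjusted p under 0.05) in R 4.3.3. Values over mice were tested by two-sided exact permutation in scipy 1.17.1. The test was checked on simulated counts. Alternatives were DESeq2 1.42.0, no filter, other scaling, batch as a term, batch 1 left out and each mouse left out. Positions are from GENCODE M21 (GRCm38).

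The members, gene lists and tests were chosen with earlier results of these data known. Genes named in the text are the 6 members, the 24 further pathway genes, the 3 genes most like each member (at least 10 CPM in a class), Gad1, Gad2 and class markers. The limit of 1000 CPM between classes was set after the values were seen. Intervals cover counting error only.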

Additional observations from a re-analysis of the deposited data

Results flagged for a closer look

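Of 83 groups of 4 to 10 mice examined, 4 held 1 mouse that stood apart from the others by Dixon's criterion, which chance gives in about 1 in 20 groups. Erbb3 in newly formed oligodendrocytes was 141 CPM in NP mouse 37, and the next NP mouse had 79.6 CPM. Nrg3 in CA3 neurons was 4431 CPM in NP mouse 31, the shallowest library, and the next NP mouse had 6698 CPM. Erbb4 in mossy cells was 67.5 CPM in control RE mouse 88, and the next control RE mouse had 24.6 CPM. Without nuclei holding Gad1 or Gad2, Erbb4 in mossy cells was 90.5 CPM in stress RE mouse 90, where 1 nucleus held most of the UMIs, and the next stress RE mouse had 37 CPM.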

How the results depend on the processing

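No paired analysis was possible because the groups compared share no replicate numbers. On leaving out 1 mouse, mossy Erbb4, on which the genes were chosen, ranged from −2.34 to −1.48 for control RE minus NP, 0.64 to 1.48 for stress RE minus control RE and −1.13 to −0.57 for stress RE minus NP. Over all classes, genes called rose from 0 to 19 with DESeq2 and 119 without the filter on low counts for control RE minus NP (0 to 0 on leaving out 1 mouse), from 1 to 34, 476, 2 with batch as a term and 3 without batch 1 for stress RE minus control RE (0 to 8), and from 0 to 422 without the filter and 1 with batch as a term for stress RE minus NP (0 to 4). Without the filter, 3 and 6 tests of the 6 genes were called in the last 2 contrasts (Erbb4, Egfr, Nrg1 and Nrg3 in classes of few counts, and Nrg1 in mossy cells), and none of the other pathway genes; on leaving out 1 mouse, members and pathway genes had 0 calls. The cause was not tested. Within batches 2 and 3, Erbb4 over all nuclei went from 34.5 to −0.46 CPM for stress RE minus NP, and Nrg2 from 3.18 to −11.0 CPM for control RE minus NP. The share of mossy nuclei with Erbb4 went from −31.4 to −4.40 points after thinning, which removes most UMIs. Leaving out 1 mouse reversed Gad1 plus Gad2 in mossy cells for stress RE minus NP (−15.3 to 0.306 CPM, reversed without NP mouse 73) and, over all nuclei, Erbb4 stress RE minus NP (−23.1 to 76.2), Egfr stress RE minus control RE (−0.8 to 3.55), Nrg1 control RE minus NP (−125 to 42.8), Nrg2 in all 3 contrasts (−13.1 to 15.7, −27.7 to 1.12 and −25.1 to 3.03) and Nrg3 stress RE minus control RE (−230 to 117). Mossy values rest on 3 or 4 mice per group and few UMIs.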
